A study of Mnemiopsis leidyi with 40 samples.

Results

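Gene activity was compared between 6 embryos of the ctenophore Mnemiopsis leidyi collected 11, 12 or 13 h into development and 6 embryos collected at 8, 8.5 or 9 h. The groups of these 12 embryos were defined by labelled age, out of 40 embryos in a time course that ran from 0 to 20 h. Each of the 20 ages in the course was represented by 2 single embryos, 1 in each of 2 library pools (pool 6 and pool 12), so each group held 3 embryos per pool. All embryos were untreated, and no genotype or strain is given. RNA was read by CEL-Seq, which counts the 3′ ends of transcripts. The 10 h embryos, which lie between the groups, were kept out of the comparison because the library from pool 6 had failed with 3808 gene reads. The remaining 10 h embryo, from pool 12, was later set against the result.

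Comb jellies develop by a fixed pattern of cleavage, after which gastrulation places the inner tissues. Later development builds the comb rows of fused cilia used for swimming, the tentacles with their adhesive cells, the pharynx and the apical sensory organ, and a free-swimming cydippid larva hatches. Whole-embryo RNA sums over all of these tissues, so fewer cells of a type and less RNA per cell cannot be told apart in any value given here. The deposited tables name 16548 gene models by identifier only. None of these identifiers matched the 19625 genes of the RefSeq table at hand (assembly crg_Mlei_v2), so no gene could be assigned a function and no list of tissue markers or pathway genes could be applied. The labelled organism and age therefore could not be checked against markers. Genes are described instead by their levels, by how they divide the embryos, and by their course at ages outside the comparison.

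The 12 libraries held from 343202 to 3153502 reads on gene models, with a median of 2001064. By group, the median was 1501397 at 8-9 h and 2156790 at 11-13 h. The shallowest by a wide margin was the 8.5 h embryo of pool 12. A count of 3 reads corresponded to between 0.951 and 8.74 CPM (reads of a gene scaled to a common library total), depending on the library. Between 45.1% and 54.4% of all reads did not align. Of the aligned reads, between 29.0% and 46.5% fell outside the gene models, most in the 11 h embryo of pool 6. The median of that share was 36.7% in pool 6 and 31.2% in pool 12.

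The embryos of a group resembled each other more than those of the other group. Over the 6949 genes that passed a filter on low counts, Spearman's correlation of log2 CPM between embryos had a median of 0.864 among the 8-9 h embryos (15 pairs, 0.730 to 0.940). The corresponding median was 0.899 among the 11-13 h embryos (15 pairs, 0.838 to 0.922) and 0.7895 between the groups (36 pairs, 0.668 to 0.880). Mean correlation within groups exceeded that between groups by 0.0813. An exact one-sided permutation test over the 924 splits into 6 and 6 embryos gave p = 0.00216, the smallest it can give.

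A pair of younger embryos stood apart. The 8.5 h embryo of pool 12 correlated with its own group at a mean of 0.758 and with the older group at 0.682, the lowest values of any embryo, and it was also the shallowest. The 9 h embryo of pool 6 correlated at 0.845 with its own group and at 0.854 with the older group, and was the only embryo closer on average to the group it was not labelled with. Its single nearest embryo was still of its own group, and the same held for each of the 12. The difference between mean correlations within and between groups was 0.0825 without the 8.5 h embryo of pool 12 and 0.0994 without the 9 h embryo of pool 6.

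**Figure D1:**
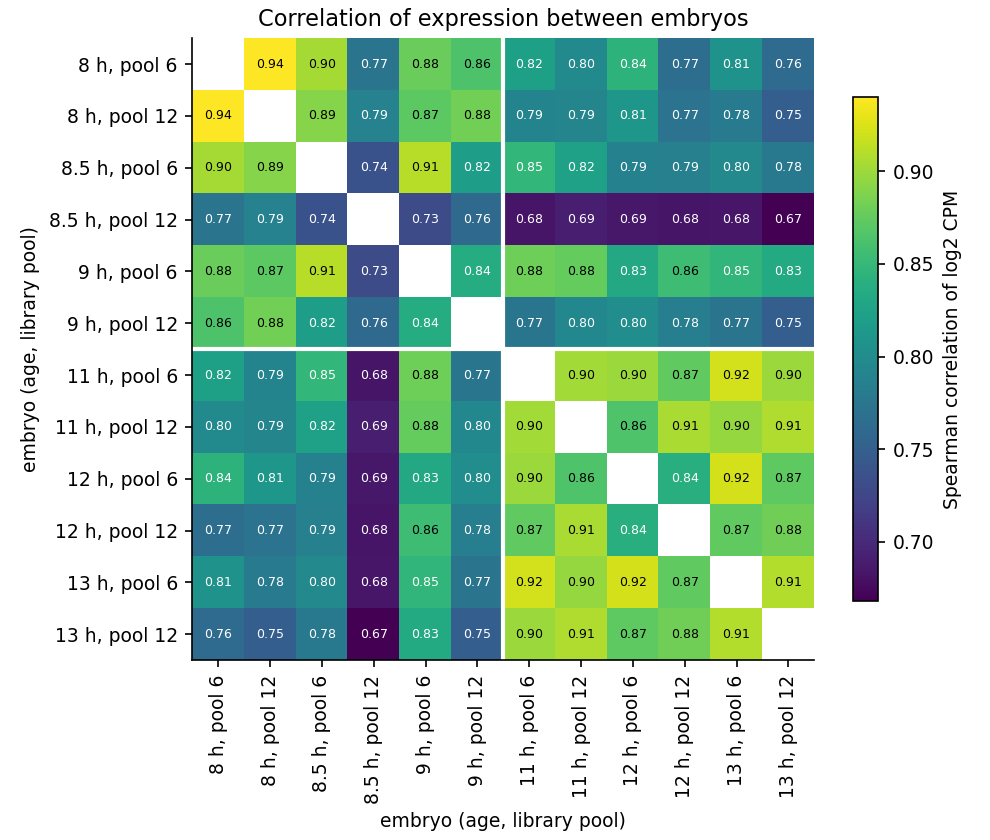
Spearman correlation of log2 CPM over 6949 genes for each pair of the 12 embryos, which are ordered by age on both axes with the groups divided by a white line. The blocks within groups are higher (medians 0.864 and 0.899) than the block between groups (median 0.7895), and the 8.5 h embryo of pool 12 has the lowest values.

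Between 8-9 h and 11-13 h, more genes rose than fell, and those that rose moved further. Of 6949 genes tested with edgeR's quasi-likelihood test, with pool as a block, a Benjamini-Hochberg adjusted p under 0.05 and a change of at least 2-fold, 851 (12.2%) were called. These comprised 635 genes with higher levels at 11-13 h (9.14% of genes tested) and 216 with lower levels (3.11%). An unadjusted p under 0.05 was reached by 2018 genes. The median log2 change over all genes tested was -0.02. Without the 9 h embryo of pool 6, 737 genes rose and 258 fell, and without the 8.5 h embryo of pool 12, 712 rose and 200 fell.

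The sizes of the changes differed between the directions. The genes that rose had a median log2 fold change of 2.05 (interquartile range 1.46 to 2.71), and 329 of the 635 (51.8%) rose more than 4-fold. Those that fell had a median size of 1.27 on the log2 scale (1.12 to 1.59), and 29 of the 216 (13.4%) fell more than 4-fold. Changes beyond 16-fold were found for 49 genes that rose and 2 that fell. Being called required a change of at least 2-fold, so these sizes describe the called genes and have a floor set by the rule. When the changes of the called genes were taken from reads summed over each group instead of from the fit, 333 and 32 genes exceeded 4-fold and 52 and 1 exceeded 16-fold.

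The genes that rose started from low levels. Their median level was 11.7 CPM at 8-9 h and 50.6 CPM at 11-13 h, and 200 of them reached 100 CPM in the older group. Genes that fell went from a median of 75.3 CPM to 28.0 CPM, and 73 of them had been at 100 CPM or more in the younger group. A gene that is low at 8-9 h passed the filter only through the older group, and 1 gene that rose had no read in any 8-9 h embryo.

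More genes rose than fell at each level of expression. Among the 1139 genes with a mean below 10 CPM, 6.67% rose and 0.878% fell. Among the 4435 genes between 10 and 100 CPM the shares were 9.65% and 3.49%, and among the 1375 genes above that they were 9.53% and 3.71%. The split of 74.6% higher among all calls changed to 91.5% when the test itself was made against the 2-fold threshold, which left 258 rises and 24 falls.

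Many genes divided the embryos without overlap. All 6 older embryos lay above all 6 younger embryos for 403 genes (5.8% of those tested), and all 6 lay below for 172 genes (2.48%), which together made 575 genes (8.27%). Among the called genes, 371 of the 635 that rose (58.4%) and 91 of the 216 that fell (42.1%) were separated in this way, together 462 genes (6.65% of those tested).

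**Figure D2:**
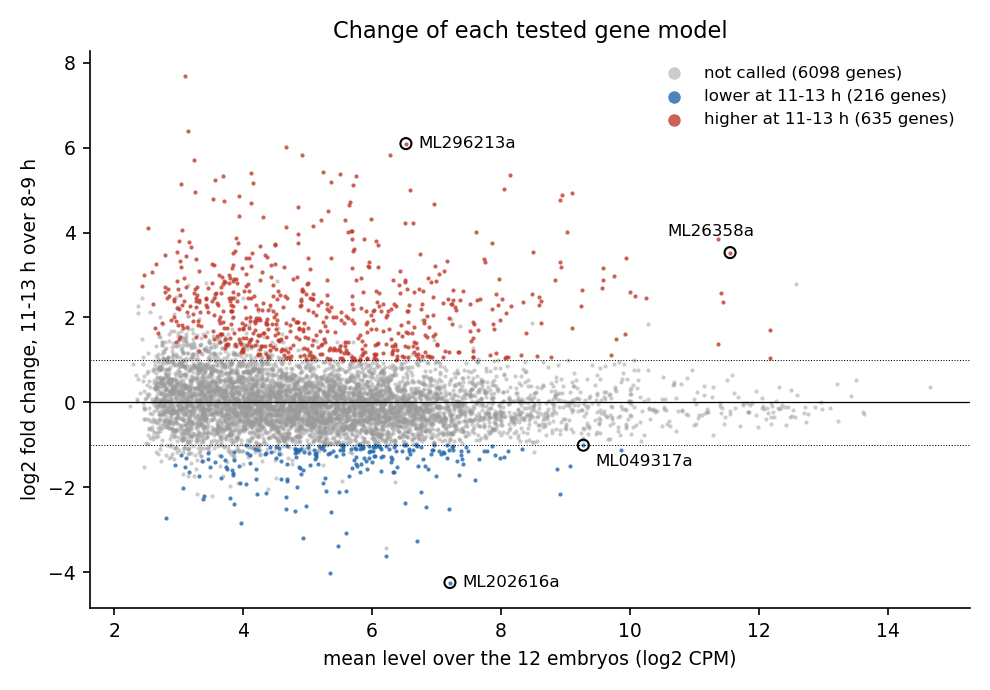
Log2 fold change (11-13 h minus 8-9 h) against the mean level in log2 CPM for the 6949 genes tested, with called genes coloured by direction and the named genes marked. The 635 genes that rose reach further from zero than the 216 that fell, and both are found from low to high levels.

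The 4 genes named here were picked by rule, as the gene with the largest fold and the gene with the largest difference in CPM in each direction. Candidates were called genes whose groups did not overlap and whose higher group had a mean of at least 20 CPM. The largest fold belonged to ML296213a, which was nearly silent in the younger embryos. In the 8, 8.5 and 9 h embryos it was at 0, 1.23 and 10.3 CPM in pool 6 and at 0, 4.75 and 0 CPM in pool 12. At 11, 12 and 13 h it was at 98.7, 45.3 and 160.7 CPM in pool 6 and at 149.7, 254.4 and 389.2 CPM in pool 12. Every older embryo was therefore above every younger one, with a mean of 183.0 ± 122.7 CPM against 2.71 ± 4.13 CPM (SD, n = 6 each).

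The summed reads of ML296213a rose from 19 to 2152, and 14 of the 19 came from the 9 h embryo of pool 6. Its log2 fold change was 6.09 ± 0.78 (SE), with an edgeR adjusted p of 6.1e-05. Leaving out the 9 h embryo of pool 6 gave a log2 fold change of 7.92, and leaving out each other embryo gave values down to 5.48. In the 10 h embryo of pool 12 the gene was at 0.623 CPM, still at the level of the younger group, and at 20 h it had reached 584.0 and 399.3 CPM.

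The largest rise in absolute level was that of ML26358a. It was at 251.9, 880.5 and 1421 CPM at 8, 8.5 and 9 h in pool 6 and at 186.9, 171.0 and 441.6 CPM in pool 12. At 11, 12 and 13 h it stood at 5941, 6262 and 6471 CPM in pool 6 and at 5404, 3736 and 5963 CPM in pool 12. The groups were far apart, although the younger embryos differed among themselves by more in proportion than the older ones, and the oldest of them was the highest in each pool. The means were 558.7 ± 498.5 and 5629 ± 995.1 CPM (SD, n = 6 each), a log2 fold change of 3.53 ± 0.40 (SE) with an edgeR adjusted p of 3.87e-05.

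At 10 h in pool 12, ML26358a was at 493.9 CPM, within the range of the younger embryos. At 20 h it was at 4679 and 3686 CPM, no higher than at 11-13 h. Unlike ML296213a, it had also been present at the start of the course, with 420.2 ± 310.5 CPM (SD, n = 4) at 0-1 h.

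ML202616a showed the largest fold decrease. Its levels at 8, 8.5 and 9 h were 390.2, 233.2 and 122.3 CPM in pool 6 and 593.4, 154.3 and 227.2 CPM in pool 12. By 11, 12 and 13 h they were 27.3, 24.6 and 11.7 CPM in pool 6 and 13.6, 5.77 and 9.35 CPM in pool 12. The lowest younger embryo was thus well above the highest older one, and the means were 286.8 ± 176.5 and 15.4 ± 8.62 CPM (SD, n = 6 each).

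The log2 fold change of ML202616a was -4.25 ± 0.45 (SE), with an edgeR adjusted p of 2.61e-05. The gene had a short window of high level. Its mean was 0.209 CPM at 0-1 h and 0.366 CPM at 2-3 h, rose to 61.7 CPM at 4-5 h and 238.6 CPM at 5.5-6.5 h, and was highest at 7-7.5 h with 435.6 ± 169.9 CPM (SD, n = 4). The 10 h embryo of pool 12 was at 165.1 CPM, inside the younger range, and the 20 h embryos were at 7.67 and 3.00 CPM.

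ML049317a, the gene with the largest fall in absolute level, changed much less in proportion. It was at 1029, 798.7 and 689.8 CPM at 8, 8.5 and 9 h in pool 6 and at 1166, 719.5 and 653.7 CPM in pool 12. At 11, 12 and 13 h it was at 474.7, 290.7 and 379.6 CPM in pool 6 and at 458.8, 519.6 and 419.3 CPM in pool 12. The groups did not overlap, and their means of 842.9 ± 207.8 and 423.8 ± 80.9 CPM (SD, n = 6 each) gave a log2 fold change of -1.01 ± 0.19 (SE) and an edgeR adjusted p of 0.00196. This change sat at the 2-fold threshold: without single embryos it ranged from -1.10 to -0.91, and edgeR's test against a 2-fold change gave an adjusted p of 1.

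**Figure D3:**
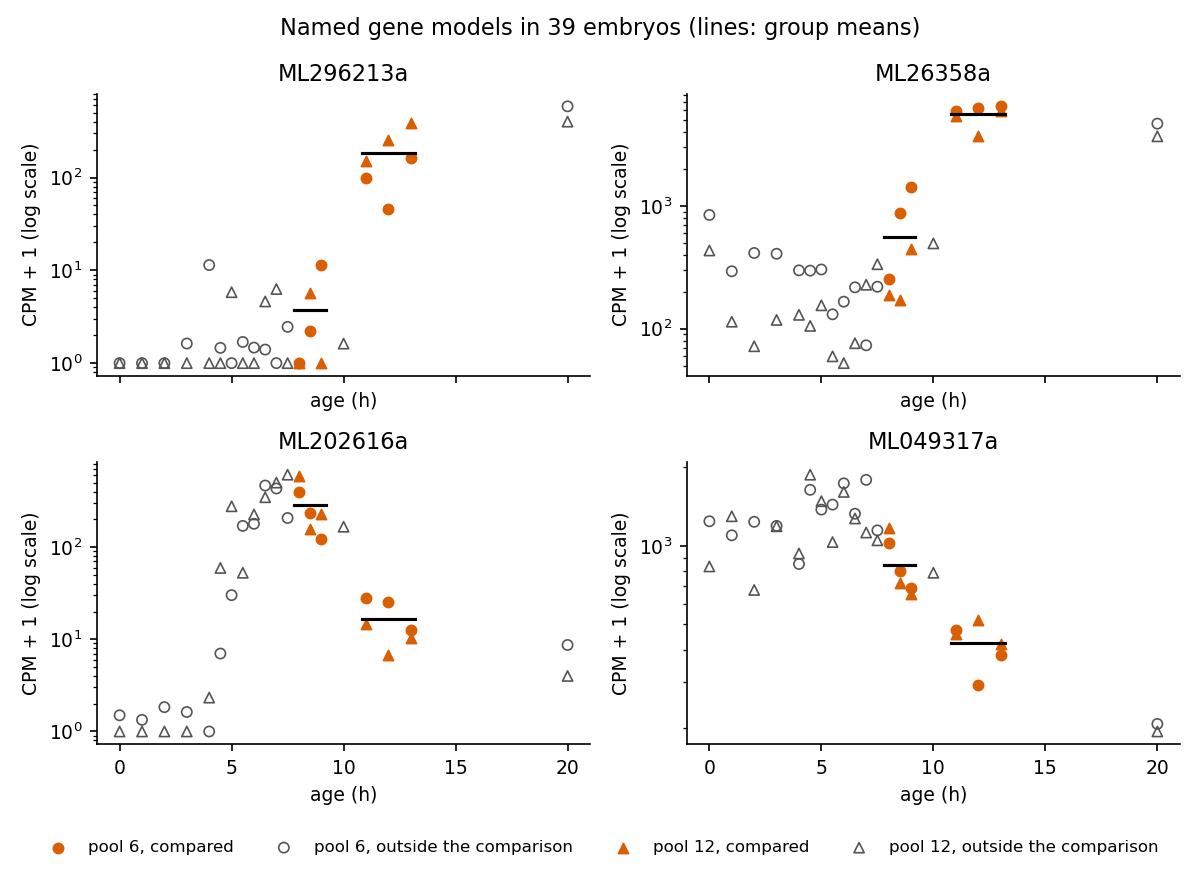
Level (CPM + 1, log axis) of the 4 named genes against age in h in 39 embryos, without the failed library. Filled symbols are the 12 compared embryos, open symbols the other ages, circles pool 6 and triangles pool 12, and lines are the group means. ML296213a and ML26358a step up and ML202616a and ML049317a step down between the groups, and the 10 h embryo of pool 12 lies within the range of the younger embryos for all 4 genes.

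As a share of all gene reads, the 635 genes that rose took up several times more of the older embryos' RNA. At 8-9 h they made up between 1.99% and 3.80% of the gene reads of an embryo, with a median of 2.70%. At 11-13 h the share lay between 8.94% and 13.4%, with a median of 12.1%. The genes were chosen for this difference, so the shares at these ages are a description.

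The ages outside the comparison place these shares in the course. Over 0 to 6.5 h the same genes took from 0.336% to 1.26% of reads (20 embryos), and at 7-7.5 h from 0.769% to 1.92% (4 embryos). At 20 h the 2 embryos gave 15.1% and 13.8%. The share in the 10 h embryo of pool 12 was 5.40%, between the groups, and the failed 10 h library gave 173 of 3808 reads, or 4.54% (95% Wilson interval 3.93 to 5.25). Wilson intervals of the other embryos reached at most 0.07 percentage points to either side and, like that of the failed library, cover counting error only.

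The 216 genes that fell followed the opposite course. They held from 2.94% to 5.34% of gene reads over 0 to 6.5 h, from 1.78% to 3.54% at 8-9 h and from 0.750% to 1.13% at 11-13 h. The 10 h embryo of pool 12 was at 1.40%, and the failed 10 h library at 1.52% (58 reads, 1.18 to 1.96). At 20 h the shares were 0.905% and 0.808%, within the 11-13 h range.

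**Figure D4:**
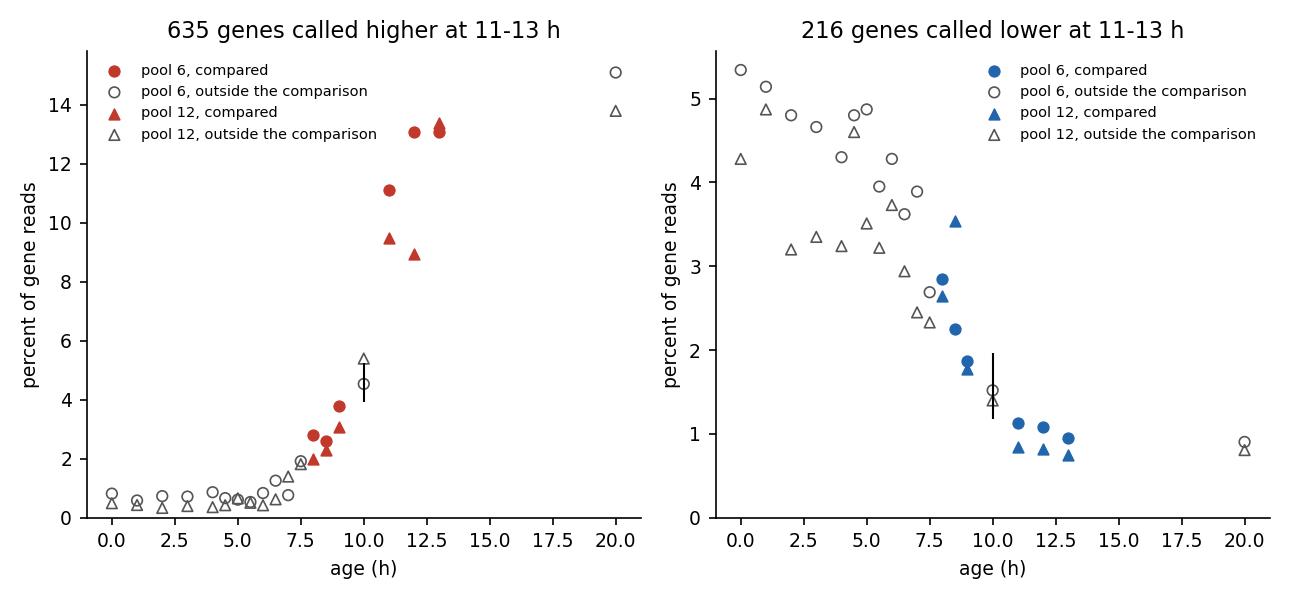
Percent of gene reads in each embryo taken by the 635 genes that rose and the 216 that fell, against age in h from 0 to 20 h. Circles are pool 6, triangles pool 12, filled symbols the compared embryos, and bars the 95% Wilson interval of the failed 10 h library. The first share stays at or below 1.92% through 7.5 h and reaches 8.94% to 13.4% at 11-13 h, while the second declines from up to 5.34% to 0.750% to 1.13%.

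The genes that rose between the groups were mostly absent or low in the earliest embryos. At 0-3 h (8 embryos), 321 of the 635 (50.6%) had a mean below 1 CPM, against 14.5% of all genes tested, and 47 (7.40%, against 1.90%) had no read at all. At 4-7.5 h (16 embryos) 110 (17.3%, against 2.79% of all) were still below 1 CPM. There were also 93 genes (14.6%) at 10 CPM or more at 0-3 h, so that early presence followed by a later rise occurred as well. Genes low at 8-9 h passed the filter only through the older group. How far the filter shapes these differences from all genes tested was not tested.

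The median level of these genes climbed through each later window. It was 0.879 CPM at 0-1 h, 0.812 CPM at 2-3 h, 2.13 CPM at 4-5 h, 3.37 CPM at 5.5-6.5 h and 6.18 CPM at 7-7.5 h. From 11.7 CPM at 8-9 h it went to 21.8 CPM at 10 h, 50.6 CPM at 11-13 h and 52.9 CPM at 20 h. The genes were called for the step from 8-9 h to 11-13 h, so its size is not set against that of the later step.

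Most genes that fell were already present at the start. Of the 216, 170 (78.7%, against 65.3% of all genes tested) were at 10 CPM or more at 0-3 h, and 207 (95.8%, against 73.3%) at 4-7.5 h. Below 1 CPM at 0-3 h were 27 (12.5%, near the 14.5% of all genes tested), and ML202616a was among them. Their median level was 86.1 CPM at 0-1 h, stood at 106 CPM at 5.5-6.5 h, and was 75.3 CPM at 8-9 h, 44.8 CPM at 10 h and 23.9 CPM at 20 h. Among genes not called, 70.1% were at 10 CPM or more at 0-3 h and 77.3% at 4-7.5 h. The genes that fell were called for a higher level at 8-9 h, so their presence at earlier ages is partly set by the choice. How far the choice shapes these shares was not tested.

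At 20 h few called genes were back past their 8-9 h mean. That mean is 1 end of the difference the genes were called for, so low counts are partly set by the rule. A partial return is not counted. The mean of the 2 embryos of 20 h was back under the 8-9 h mean for 24 of the 635 genes that rose (3.78%) and back over it for 3 of the 216 that fell (1.39%). Both 20 h embryos were above the whole 11-13 h range for 121 of the genes that rose (19.1%, against 8.22% of all genes tested) and below it for 92 (14.5%, against 11.9%). For the genes that fell, both were below that range for 45 (20.8%) and above it for 18 (8.33%, near the share of all genes).

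The 10 h embryo of pool 12, which took no part in the test, lay between the group means for most called genes. It was between them for 459 of the 635 genes that rose (72.3%), had not passed the 8-9 h mean for 122, and was beyond the 11-13 h mean for 54. On a log2(CPM + 1) scale running from 0% at the 8-9 h mean to 100% at the 11-13 h mean, its median position was 45.2% (interquartile range 12.6 to 70.6). For the genes that fell it was between the means for 158 of 216 (73.1%), with a median position of 48.6% (21.2 to 78.2). This is a single embryo, so the spread at 10 h is unknown. The called genes were chosen for group means that lie apart, so a place between them is partly set by the choice. Positions were computed for called genes only, so no share over all genes tested stands beside them.

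**Figure D5:**
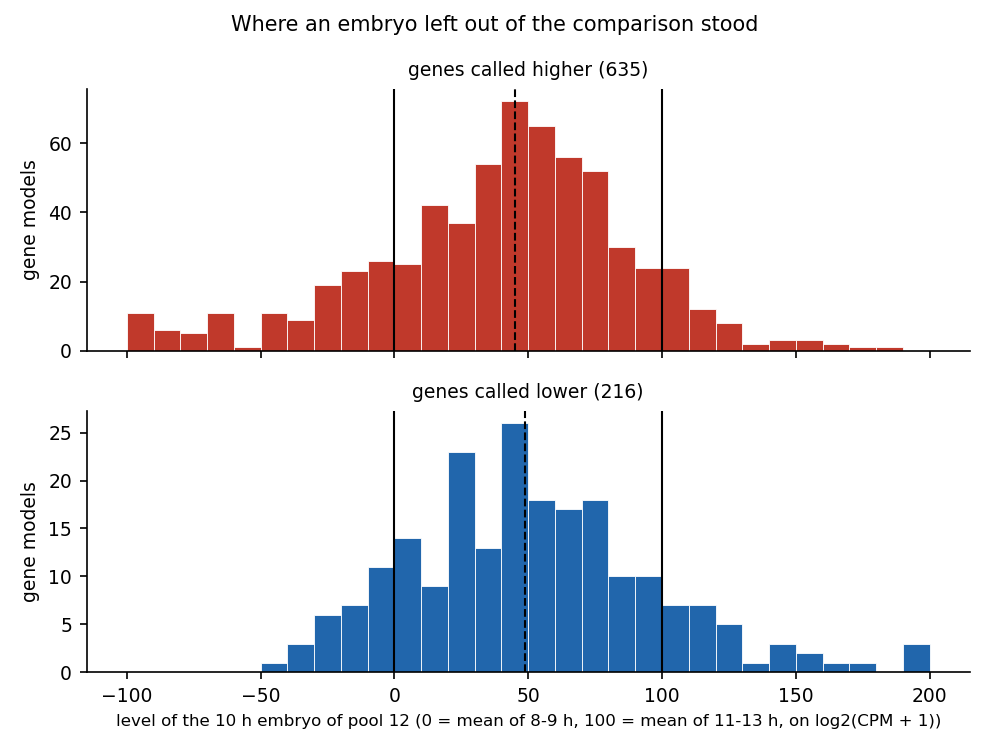
Position of the 10 h embryo of pool 12 for each called gene, in percent of the way from the 8-9 h mean (0) to the 11-13 h mean (100) on log2(CPM + 1), with both means as solid lines and the median as a dashed line, as the number of genes per bin for the 635 genes that rose and the 216 that fell. Both distributions centre near the middle, with medians of 45.2% and 48.6%, and are wide. Positions beyond the axis are counted in the end bins.

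Most called genes also moved in the same direction with age inside each group, in the same embryos that gave the calls. Over 8 to 9 h, 463 of the 635 genes that rose could be fitted. A positive slope was found for 342 of them (73.9%, against 49.6% of all genes tested). Their median slope was 0.52 log2 units per h, against -0.01 over all genes tested. From the 8 h to the 9 h embryo, 71.0% of the 635 genes went up in pool 6 and 60.2% in pool 12. For all genes tested these shares were 50.4% and 44.2%. Over 11 to 13 h, 480 of 635 (75.6%, against 48.7% of all genes) had a positive slope, with a median of 0.16 per h. For the genes that fell, 174 of 216 (80.6%) had a negative slope over 8 to 9 h and 155 of 213 (72.8%) over 11 to 13 h. The shares over all genes tested were 50.4% and 51.3%.

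No single gene reached an adjusted p under 0.05 for such a slope in edgeR's quasi-likelihood test. Over 8 to 9 h, 0 of 6879 genes were called, with 296 at an unadjusted p under 0.05 and 3 called by DESeq2. Without the 8.5 h embryo of pool 12, edgeR again called 0 genes, with 705 at an unadjusted p under 0.05. Over 11 to 13 h, 0 of 8088 were called, with 370 at an unadjusted p under 0.05 and 16 called by DESeq2. Each slope rests on 6 embryos. Whether edgeR could call slopes as small as the medians found here was not tested, so 0 calls are not read as no change.

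Embryos of other ages gave a comparison that shares no embryo with the first. The 2 embryos of 20 h were compared with the 4 embryos of 7 and 7.5 h, and 2055 of 7113 genes (28.9%) were called, 1244 higher at 20 h (17.5%) and 811 lower (11.4%). Of the 635 genes that rose from 8-9 h to 11-13 h, 597 were tested here. Of these, 449 (75.2%) were called higher, 1 lower and 147 not called, and they made up 36.1% of the 1244.

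Falls recurred in part. Of the 216 genes that fell, 213 were tested and 114 (53.5%) were called lower, 2 higher and 97 not called, which made up 14.1% of the 811. The median log2 change between 7-7.5 h and 20 h was 3.16 for the genes that had risen and -1.50 for those that had fallen, against 0.05 over all genes tested. The counts rest on both 20 h embryos. With a single 20 h embryo, 29.9% or 38.3% of the tested genes that had risen were called higher (4.34% or 5.30% of all genes), and 25.1% or 33.8% of those that had fallen were called lower (2.76% or 3.33% of all).

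The same naming rule gave 4 genes for the comparison of 20 h with 7-7.5 h. ML18206a had no read in the 4 embryos of 7-7.5 h and 2070 reads at 20 h, at least 2343-fold higher against a floor of 3 reads over the group, with an edgeR adjusted p of 0.000104. It was already rising in the earlier comparison, from 2.42 ± 2.88 to 104.5 ± 73.6 CPM (SD, n = 6 each), with a log2 fold change of 5.34 ± 0.63 (SE) and an edgeR adjusted p of 4.07e-05. The 10 h embryo of pool 12 was at 6.23 CPM.

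ML03658a had the largest rise in absolute level by 20 h. Its mean was 115.3 ± 93.4 CPM (SD, n = 4) at 7-7.5 h, 939.5 ± 1035 CPM (n = 6) at 8-9 h, 4777 ± 1716 CPM (n = 6) at 11-13 h and 6756 CPM at 20 h. The change from 8-9 h to 11-13 h was 2.35 ± 0.44 on the log2 scale (SE; edgeR adjusted p = 0.00164). The level at 10 h in pool 12, 3419 CPM, was between the group means.

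The named genes that fell by 20 h were not called between the younger and older groups. ML02011a went from 32.2 ± 8.35 CPM (SD, n = 4) at 7-7.5 h to no read at 20 h, at least 24.7-fold lower against 252 reads (edgeR adjusted p = 0.002). Its levels of 11.5 ± 8.97 CPM at 8-9 h and 9.86 ± 5.81 CPM at 11-13 h (SD, n = 6 each) differed by -0.27 ± 0.57 on the log2 scale, with an edgeR adjusted p of 0.804. ML04649a was at 6270 ± 2164 CPM (n = 4), 5010 ± 1087 CPM (n = 6), 3967 ± 1477 CPM (n = 6) and 2117 CPM at 7-7.5, 8-9, 11-13 and 20 h. Levels of ML04649a were higher in pool 12, by 0.76 on the log2 scale (edgeR adjusted p = 0.0447). In pool 6 all its 11-13 h levels (2706 to 2891 CPM) were below its 8-9 h levels (3766 to 4561 CPM). In pool 12 the groups overlapped. The change of ML04649a between 8-9 h and 11-13 h was -0.40 ± 0.16 (SE, edgeR adjusted p = 0.109). Between 7-7.5 h and 20 h it was -1.40 ± 0.22 (edgeR adjusted p = 0.00279), and the adjusted p was 0.0534 without the 20 h embryo of pool 12.

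Each pool gave the comparison on its own, with 3 embryos against 3. Pool 6 called 545 of 7397 genes (7.37%), of which 429 were higher, and pool 12 called 514 of 6846 (7.51%), of which 387 were higher. Both pools called 212 genes, all in the same direction, which were 38.9% of the pool 6 calls and 41.2% of the pool 12 calls.

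Directions found in either pool mostly held in the other, which shares no embryo with it. Of the 395 pool 6 rises that were tested in pool 12, 383 (97.0%) had a positive change there, against 51.7% of all genes. Of the 364 pool 12 rises tested in pool 6, 333 (91.5%) did, against 50.3%. For falls the shares were 96.5% from pool 6 to pool 12 and 77.7% from pool 12 to pool 6, against 48.3% and 49.7% of all genes. The median log2 change of the pool 12 falls was -1.96 in pool 12 and -0.74 in pool 6.

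The difference between the groups was not found to depend on the pool for any gene with edgeR (0 calls, 606 genes at an unadjusted p under 0.05), whereas DESeq2 called 21 genes. The pools themselves differed at 38 genes (0.547%) with edgeR, 6 of them higher in pool 12 (0.0863%) and 32 lower (0.46%), and at 160 with DESeq2. For the 4 genes named in the first comparison, edgeR adjusted p-values for a dependence on pool ranged from 0.534 (ML202616a) to 0.931 (ML049317a).

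The older embryos also had more genes with reads when the libraries were cut to an equal total of gene reads. With each library thinned to 343202 reads, 8195.7 ± 315.16 genes had at least 1 read at 8-9 h and 8869 ± 424.41 at 11-13 h (SD, n = 6 each). The difference of 673.33 genes had an exact two-sided permutation p of 0.0152. Within pool 6 the difference was 770.67 genes and within pool 12 it was 576 genes, each with an exact permutation p of 0.1, the smallest that 3 embryos against 3 allow. Counting only genes with at least 3 reads after thinning, the difference was 403.5 genes (exact two-sided permutation p = 0.0411). Without thinning, the difference was 1343.3 genes. Leaving out the 8.5 h embryo of pool 12, whose depth set the thinning, gave a difference of 571.4 genes (exact permutation p = 0.0281). The other libraries were not thinned anew for this and stayed at 343202 reads. The lowest difference with a single embryo left out was 548.13 genes, without the 11 h embryo of pool 6 (exact permutation p = 0.0303).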

How the data were processed

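Single Mnemiopsis leidyi embryos were profiled by CEL-Seq, and the authors deposited a table of raw counts per gene model for each library, with 5 rows that name no gene (unaligned, ambiguous and similar reads). These rows were left out of library sizes and tests; unaligned reads made up 45.1% to 54.4% of reads in the 12 embryos compared. Tools listed in the submitters' processing notes are HTSeq 0.5.4p3, Bowtie2 2.1.0 and CASAVA 1.8. Build, gene annotation, strand setting and merging of molecular identifiers were not given in the sources used here; overlapping or near-identical gene models may share reads. A deposited sample sheet gave the age of each embryo and its library pool (Illumina index 6 or 12).

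Counts were tested in R 4.3.3 with edgeR 4.0.16 (filterByExpr with a count minimum of 10, TMM, quasi-likelihood test) and the pool as a block. Genes were called at a Benjamini-Hochberg adjusted p under 0.05 and at least 2-fold. DESeq2 1.42.0 was an alternative. The scripts were tested on simulated data. CPM values used TMM factors over 39 embryos, without the failed library. The common coefficient of biological variation was 0.397. Other alternatives were other scalings and filters, equal totals, a test against a 2-fold change, each pool alone and other time models. Each embryo was also left out, as were both 8.5 h embryos together. A further alternative added the 10 h embryo of pool 12 to the older group.

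A pool is defined by its index alone. Deviations from the group means correlated at a median of 0.0159 between embryos of the same pool and -0.0303 between pools, with 4 and 1 of 18 pairs over 0.1. No label states whether embryos share a spawning, so the tests set each difference against the spread between these embryos only. Each group spans several ages that the main fit treats alike. Change with age inside a group is therefore part of that spread and of each SD. A fit with each age as its own level called 809 genes. Embryos of the same age were different libraries (chi-square per degree of freedom of 20.2 for the 8 h pair). The groups and the rule for named genes were chosen with earlier results of these data known.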

Additional observations from a re-analysis of the deposited data

Results flagged for a closer look

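In 4 of the 33 groups of values examined, 1 embryo lay far from the others of its group. The limit used gives about 1 in 20 such groups for independent, normally distributed values. The values here need not be either, so 4 of 33 is not read against that rate. ML18206a was at 7.85 CPM (13 reads) in the 8 h embryo of pool 6, with the next 8-9 h embryo at 2.37 CPM (1 read). The same gene was at 245.4 CPM in the 13 h embryo of pool 6, with the next 11-13 h embryo at 100 CPM and the lowest at 30.2 CPM. ML03658a was at 3004 CPM in the 9 h embryo of pool 12, against 201.8 to 843.5 CPM in the other 8-9 h embryos. ML049317a was at 1791 CPM in the 7 h embryo of pool 6, against 1049 to 1146 CPM in the other embryos of 7-7.5 h.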

How the results depend on the processing

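The comparison of 11-13 h with 8-9 h called 851 genes, and without the pool as a block it called 826 (606 higher, 220 lower), of which 798 were shared. Every one of the 851 calls that could be tested kept its sign in each alternative. Counts moved by more than 1.5 times in 4 of them. Thinning to equal totals tested 3584 genes and called 465 (341 higher, 124 lower). A test against a 2-fold change called 282 (258 and 24). Pool 6 alone called 545 (429 and 116) and pool 12 alone 514 (387 and 127), each with fewer embryos. Leaving out single embryos gave 674 (without the 13 h embryo of pool 12) to 995 calls (without the 9 h embryo of pool 6), 513 to 737 higher and 153 to 258 lower. Other scalings, models and a CPM minimum gave 761 to 984 calls, and no filter gave 1097. Adding the 10 h embryo of pool 12 to the older group gave 757 calls, and leaving out both 8.5 h embryos gave 863. The difference between pools went from 38 to 160 genes with DESeq2. Slopes went from 0 genes to 16 (11-13 h) and 3 (8-9 h) with DESeq2, and with single embryos left out to 0 to 2 genes over 11-13 h and 0 over 8-9 h. The comparison of 20 h with 7-7.5 h gave 561 to 2244 calls with single embryos left out: 561 and 672 without the 20 h embryo of pool 6 or of pool 12, where the lone embryo is assumed to vary like the other group, and 1347 without the 7 h embryo of pool 12. ML049317a, at -0.89 in pool 12 alone (edgeR adjusted p = 0.133), was no longer called there. Its change was also under 2-fold with DESeq2 (-0.989), median-of-ratios scaling (-0.988) and a minimum of 10 CPM (-0.997). The same held for the time models (-0.989 and -0.914), with the 10 h embryo added (-0.860), and without some single embryos. In all of these the adjusted p from edgeR or DESeq2 stayed under 0.05, but the gene missed the 2-fold rule. ML04649a was at -1.31 without the 20 h embryo of pool 12. Why these values moved was not tested. In the shallowest embryo 3 reads are 8.74 CPM.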

Other observations

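A gene that was not called, ML20766a, varied widely between embryos of the same age. It was picked after its values were seen, as the highest-level gene among the 23 that differed at least 4-fold without being called. At 8, 8.5 and 9 h it was at 229.0, 9667 and 5171 CPM in pool 6 and at 331.9, 498.7 and 212.1 CPM in pool 12. At 11, 12 and 13 h it was at 8675, 386.6 and 11396 CPM in pool 6 and at 14965, 18581 and 5792 CPM in pool 12. The groups overlapped, with means of 2685 ± 3934 and 9966 ± 6513 CPM (SD, n = 6 each) and a log2 difference of 2.80 ± 1.14 (SE; edgeR adjusted p = 0.111). At 7 h the embryos were at 1009 and 9513 CPM, and at 7.5 h at 7733 and 8277 CPM (pool 6 and pool 12). Up to 4.5 h no embryo exceeded 141.6 CPM.

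Among 2998 pairs of tested genes with consecutive identifiers, the second gene had risen in 42 of the 250 pairs whose first gene had risen (16.8%), against 8.31% of all second genes. For genes that fell the count was 4 of 94 pairs (4.26%, against 3.20%). Whether consecutive identifiers are neighbours in the genome was not tested, and reads shared by overlapping gene models were not tested either.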
